A study of Mus musculus with 4 samples.

Results

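The aminoacyl-tRNA synthetases are the enzymes that join each amino acid to its tRNA, and 36 of their genes were followed here among the 21936 genes of a mouse testis count table. They were listed by name as cytosolic and mitochondrial synthetases, by a rule that uses no measured value, although earlier results of these data were known when the family was picked. All 36 were found in the table. The study immunoprecipitated TSSK2, a testis-specific serine/threonine kinase, and sequenced the RNA that came down with it. TSSK2 marks the late chromatoid body (late-CB), an RNA-rich granule of elongating spermatids, and the comparison asks which RNAs TSSK2-IP holds in excess of control IgG-IP. There were 2 TSSK2-IP libraries and 2 control IgG-IP libraries.

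All 4 libraries came from testis. The mice were adult C57BL/6 animals older than 8 weeks. Germ cells were cross-linked with formaldehyde, and the pellet of the sonicated lysate was divided between beads carrying a mouse anti-TSSK2 antibody and beads carrying mouse IgG. No knockout, transgene or drug was part of these groups, and no input library was used here. The control therefore measures what RNA binds to IgG-coated beads from the same kind of lysate, and a low value in TSSK2-IP does not separate less RNA in the late-CB from more RNA on the control beads. In such libraries fewer cells of a type and less RNA per cell cannot be told apart. Nothing in the labels says that libraries came from separate animals, so p-values measure at most the spread between these samples.

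The libraries held between 3938922 and 9858941 counts, and a single count was worth 0.156 to 0.230 normalized CPM (a gene's counts relative to the TMM-scaled total of its library). Control IgG-IP replicate 1 was the deepest library and stood apart from control IgG-IP replicate 2. The 2 control libraries lay at least 2-fold apart for 41.8% of the 14722 genes tested, and the 2 TSSK2-IP libraries for 5.43%. Transcripts listed as markers of elongating spermatids (Prm1, Prm2, Tnp1, Tnp2, Odf1 and Akap4) were present in every library. Their summed level ranged from 3820 to 4170 normalized CPM in TSSK2-IP and from 5000 to 10300 in control IgG-IP, with all 6 tested and none called. Marker lists of somatic testis cells were low: summed levels in TSSK2-IP and control IgG-IP were 16.9 to 27.3 and 8.26 to 20.2 for Sertoli cells, 34.6 to 35.4 and 14.3 to 33.2 for Leydig cells (Insl3 at 0 in a library), 17.8 to 17.9 and 13.0 to 25.9 for peritubular myoid cells, and 12.6 to 20.9 and 11.7 to 18.6 for macrophages. The 4 erythroid globin genes summed to 1.33 to 4.57 and 0.69 to 1.09, with Hba-a1, Hba-a2 and Hbb-bt at 0 in a library. Markers of round spermatids (264 to 329 and 222 to 291), spermatocytes (338 to 368 and 322 to 352) and spermatogonia (23.6 to 26.1 and 27.7 to 31.0) differed less, and the part of any of these cell types in the results was not tested.

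Each synthetase recognizes 1 amino acid and the tRNAs that carry it, and the charged tRNA is then handed to an elongation factor and on to the ribosome. Animal cells run this reaction in the cytosol and again in mitochondria, mostly with separate nuclear genes, and the mitochondrial enzymes conventionally carry a 2 in their name. In the cytosol, several synthetases are held together in the multisynthetase complex, while the others are not part of it. Kars and Gars are exceptions to the division by gene, since each also yields a mitochondrial form of its enzyme. As elongating spermatids condense their chromatin, transcription is largely silenced, and proteins made after that depend on stored mRNAs.

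Lars2, the mitochondrial leucyl-tRNA synthetase, had by far the most counts of any synthetase, and of any gene in the table, in all 4 libraries. It took 10.5% of all counts in TSSK2-IP replicate 1 (95% Wilson interval 10.46 to 10.52%) and 11.3% in TSSK2-IP replicate 2 (11.25 to 11.3%). It took 5.80% in control IgG-IP replicate 1 (5.789 to 5.819%) and 14.4% in control IgG-IP replicate 2 (14.38 to 14.45%). The 2 control libraries thus gave the lowest and the highest share, with both TSSK2-IP libraries between them. These intervals cover counting error only. Lars2 had between 8.34 and 26.7 times the counts of the next gene, which was Gm10800 in 3 libraries and Odf2 in control IgG-IP replicate 1. The other 35 synthetases together took 0.146% and 0.137% of the counts in TSSK2-IP and 0.196% and 0.157% in control IgG-IP.

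After scaling, Lars2 stood at 90400 and 96400 normalized CPM in TSSK2-IP and at 89300 and 130000 in control IgG-IP. The groups overlapped. Its log2 fold change was -0.23 with an SE of 3.91 (95% interval -8.62 to 8.15, Benjamini-Hochberg adjusted p = 0.986 by the edgeR quasi-likelihood test). That SE was the largest of the 36 genes, at a level far above those of the other 35, and the interval sets no useful bound on the difference. Left with control IgG-IP replicate 2 as the only control, Lars2 had a log2 fold change of -0.43 (edgeR adjusted p = 1.02e-13), smaller than the 2-fold change needed for a call. With control IgG-IP replicate 1 as the only control it was 0.00 (edgeR adjusted p = 0.961).

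The Lars2 gene holds a stretch of sequence with copies elsewhere in the genome. Lars2 lies on chr9:123366927-123462666 of GRCm38, on the plus strand, and its annotated exons cover 11089 bases. Its last exon (chr9:123461499-123462666, 1168 bases) holds the end of the coding sequence, which stops at position 123461678. Within the 3′ UTR part of that exon, 113 bases after the coding end, lies a stretch of 398 bases (chr9:123461792-123462189) that makes up 3.59% of the exon bases. This stretch matched 11 other places on 9 chromosomes over at least 100 bases at 90% identity or more, and 0 of them lay in an exon of a gene in the count table. The longest match lay within the span of Gphn (chr12:78350930-78351173, 97.5% identical over 244 bases).

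The closest copy was intergenic, on the minus strand of chr6:49236450-49236617, and differed from Lars2 at 2 of its 168 bases. Windows of 30 bases around both differing bases are printed to show how little separates the copies, read 5′ to 3′ from the RefSeq GRCm38.p6 genome along the Lars2 strand, with the differing base in capitals.
Lars2 at chr9:123461863-123461892, plus strand: tcttgattttcagtaGgaatacagaccgtg
Copy at chr6:49236537-49236566, minus strand: tcttgattttcagtaCgaatacagaccgtg
Lars2 at chr9:123461925-123461954, plus strand: gggttttaagcaggaTgtgtcagaaaagtt
Copy at chr6:49236475-49236504, minus strand: gggttttaagcaggaGgtgtcagaaaagtt
As background, part of the 3′ end of Lars2 is known to resemble large-subunit ribosomal RNA, and according to the methods ribosomal RNA was not removed from these libraries. The count table gives 1 number per gene and 0 rows for ribosomal RNA gene models, so the share of Lars2 counts that fell in the stretch was not tested. Reads whose placement between these copies is uncertain could be counted or dropped depending on the counting settings, which are not given in the sources used here.

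**Figure D1:**
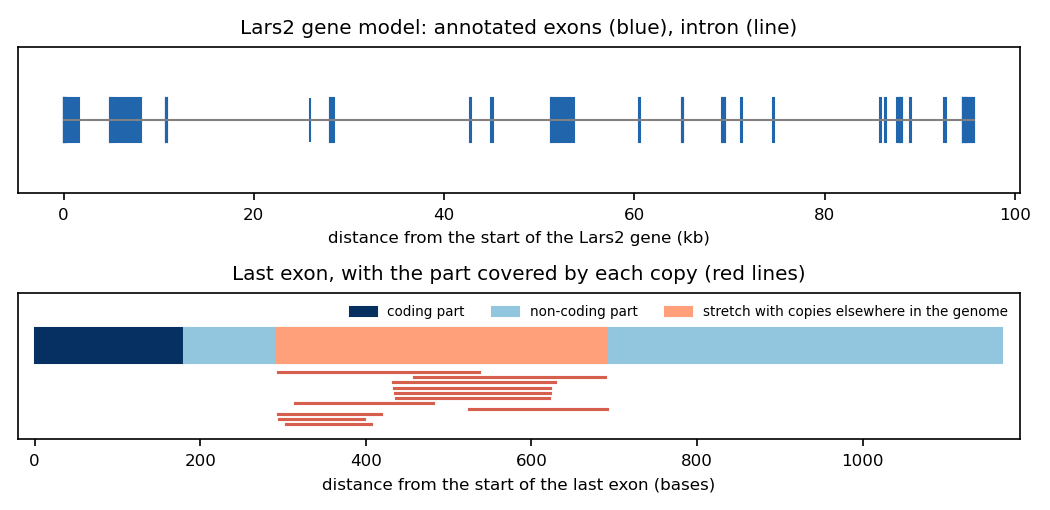
Gene model of Lars2, with distance from the gene's start in kb (top) and distance from the start of the last exon in bases (bottom). Blue blocks are annotated exons of any transcript, and in the lower panel the orange block is the stretch of 398 bases and each red line is the part of it covered by 1 of the 11 copies elsewhere in the genome. The copies cover different parts of the stretch and none reaches the coding part.

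Levels of the other 35 synthetases were compared per kb of annotated exon, as the mean normalized CPM per kb over the 4 libraries. Vars, the cytosolic valyl-tRNA synthetase, was highest at 84.0, followed by Kars (lysine) at 23.3, Aars (alanine) at 21.6 and Gars (glycine) at 16.4. The lowest were Tars (threonine) at 1.10 and the mitochondrial Pars2 (proline) and Wars2 (tryptophan) at 0.683 and 0.672. On this scale Lars2 stood 109 times above Vars and 1450 times above Lars, its cytosolic counterpart. The median level per kb was 8.22 for the 8 enzymes of the multisynthetase complex, 7.04 for the 12 other cytosolic enzymes and 1.87 for the 15 mitochondrial enzymes other than Lars2. Fars2, for phenylalanine, was the most abundant of those 15 at 12.1, within the range of the cytosolic enzymes.

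**Figure D2:**
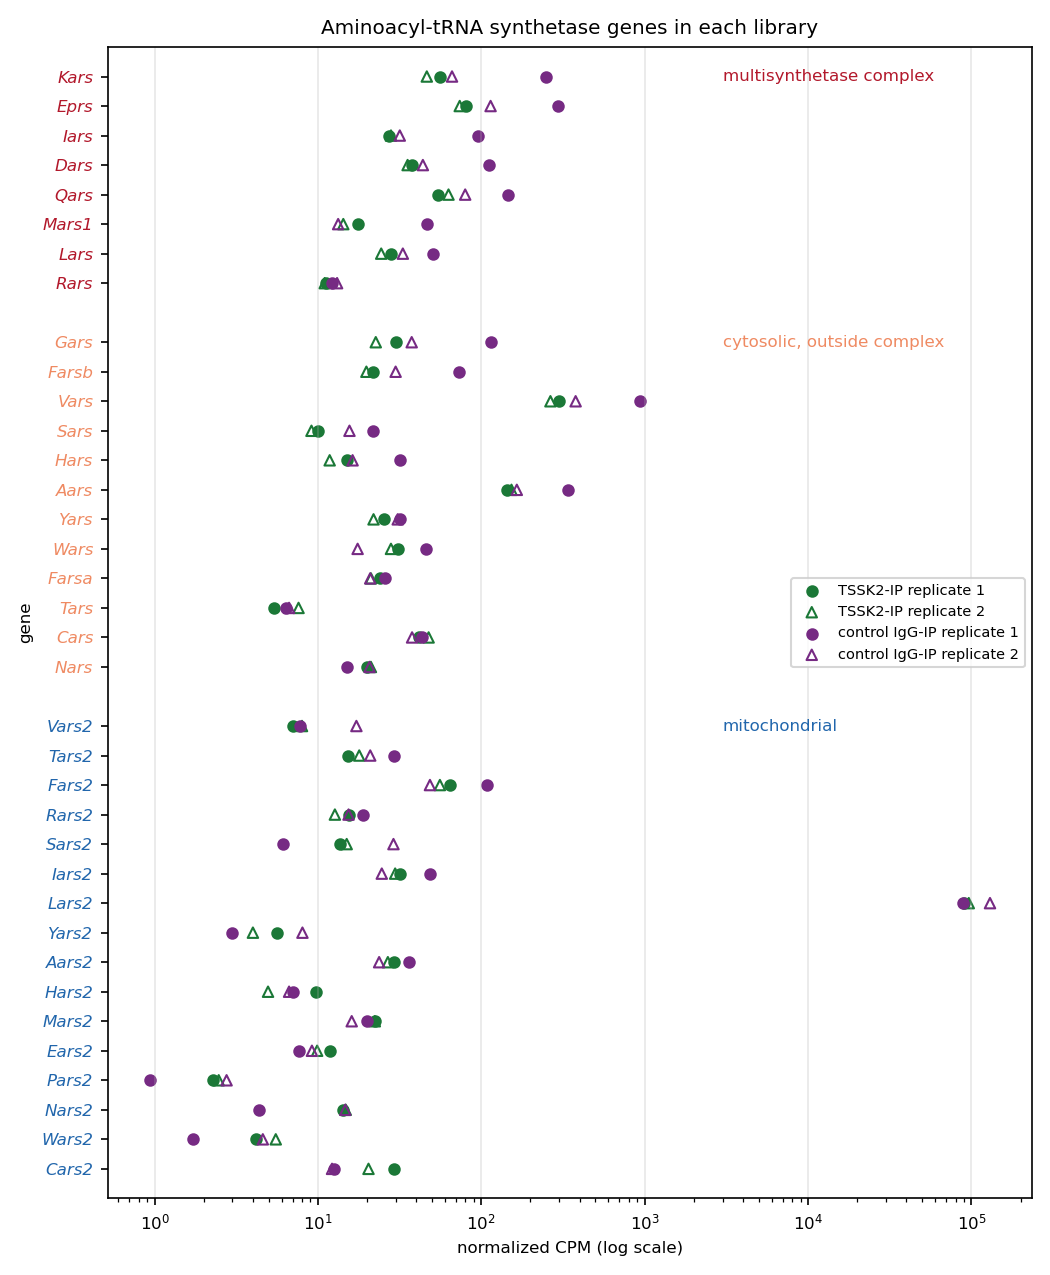
Normalized CPM (log scale) of each of the 36 synthetase genes in each library, ordered within the 3 groups by log2 fold change. Filled circles are replicate 1 and open triangles replicate 2, with TSSK2-IP in green and control IgG-IP in purple. Control IgG-IP replicate 1 lies to the right of the other 3 libraries for most genes of the multisynthetase complex, and Lars2 lies far to the right of every other gene in all 4 libraries.

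Whether the synthetase mRNAs were among those more abundant in TSSK2-IP was asked with a fit across all 14722 genes, in which a call meant a change of 2-fold or more either way with an adjusted p no higher than 0.05. All 36 synthetases passed the filter on low counts and 0 were called higher, where 0.693% of all genes were (102 genes). Likewise 0 were called lower, where 0.0% of all genes were. The smallest adjusted p among the 36 was 0.256 by edgeR. DESeq2 also called 0, for which the share of all genes is not given. At an unadjusted p under 0.05, 1 synthetase was higher (Cars2, background 8.34%) and 7 were lower (Gars, Farsb, Kars, Eprs, Iars, Dars and Sars, background 4.89%). The 2 TSSK2-IP values exceeded both control values for 3 synthetases (8.33%, against 27.3% of all genes) and were under both for 15 (41.7%, against 21.6%), and the groups overlapped for 18. The median log2 fold change was -0.27 over the 36 genes and -0.02 over all genes tested.

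The genes were grouped by where their enzymes work. Of all genes tested, 50.8% had a negative log2 fold change. All 8 enzymes of the multisynthetase complex had a negative log2 fold change, with a median of -1.02. Of the 12 cytosolic enzymes outside the complex, 10 were negative, with a median of -0.59. The 10 include Tars, whose value rounds to 0.00. Of the 16 mitochondrial enzymes, 9 were negative and 7 positive, with a median of -0.13. The counts of negative values in the cytosolic groups were the same with DESeq2's size factors and with upper-quartile scaling, while the mitochondrial count was 10 with size factors. By structural class of the enzyme, which splits the family by the fold of its catalytic domain, the medians lay closer together, at -0.24 for the 18 class I enzymes and -0.40 for the 17 class II enzymes. Eprs joins a catalytic domain of each class in 1 protein and was counted apart.

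Kars, the lysyl-tRNA synthetase, had the largest difference of the complex and of all 36 genes. It stood at 56.2 and 46.4 normalized CPM in TSSK2-IP and at 248 and 66.2 in control IgG-IP, a log2 fold change of -1.61 (SE 0.57, edgeR adjusted p = 0.272). Both TSSK2-IP libraries were below both control libraries, and control IgG-IP replicate 1 was far above the other 3.

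Eprs, which charges both glutamate and proline tRNAs, stood at 80.9 and 73.8 in TSSK2-IP and at 295 and 114 in control IgG-IP (log2 fold change -1.40, SE 0.54, edgeR adjusted p = 0.307). Iars, for isoleucine, stood at 27.4 and 28.0 against 95.5 and 31.7 normalized CPM (log2 fold change -1.20, SE 0.49, edgeR adjusted p = 0.331). In both genes the groups did not overlap, and control IgG-IP replicate 2 lay nearer to the TSSK2-IP libraries than to the other control library. Lars, the cytosolic leucyl-tRNA synthetase, stood at 28.2 and 24.4 against 50.4 and 33.1 normalized CPM (log2 fold change -0.67, SE 0.40, edgeR adjusted p = 0.471). Rars, for arginine, had the smallest difference of the complex at 11.2 and 11.0 against 12.2 and 13.1 normalized CPM (log2 fold change -0.18, SE 0.44, edgeR adjusted p = 0.880), and its 4 libraries lay close together. Dars, Qars and Mars1, for aspartate, glutamine and methionine, had log2 fold changes of -1.09, -0.95 and -0.92. Mars1 was the only gene of the complex whose groups overlapped, because control IgG-IP replicate 2, at 13.3 normalized CPM, was its lowest library.

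Among the cytosolic enzymes outside the complex, Gars (glycine) had the largest difference. It stood at 29.9 and 22.6 normalized CPM in TSSK2-IP and at 115 and 37.5 in control IgG-IP, a log2 fold change of -1.54 (SE 0.51, edgeR adjusted p = 0.256). Farsb, the beta subunit of the cytosolic phenylalanyl-tRNA synthetase, stood at 21.6 and 19.8 against 72.6 and 29.9 (log2 fold change -1.31, SE 0.46, edgeR adjusted p = 0.271). In both genes the TSSK2-IP libraries were below the control libraries and control IgG-IP replicate 1 was highest.

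Farsa, the alpha subunit that pairs with Farsb in the same enzyme, had a log2 fold change of -0.04 (SE 0.40), from 24.0 and 21.1 normalized CPM in TSSK2-IP and 25.6 and 20.9 in control IgG-IP. The control libraries of Farsa lay closer together than those of Farsb, and the difference between the 2 genes was not tested. Vars, the most abundant synthetase after Lars2, stood at 298 and 265 against 943 and 378 normalized CPM (log2 fold change -1.23, SE 0.69, edgeR adjusted p = 0.438). Tars, for threonine, stood at 5.39 and 7.61 against 6.40 and 6.66 normalized CPM (log2 fold change 0.00, SE 0.54), with the TSSK2-IP libraries on either side of the controls. Cars (cysteine) and Nars (asparagine) were the 2 positive genes of this group, at 0.14 and 0.21.

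Among the mitochondrial enzymes, Cars2, the cysteinyl-tRNA synthetase, had the largest difference and was the only synthetase with a log2 fold change as high as 1. It stood at 29.4 and 20.4 normalized CPM in TSSK2-IP and at 12.6 and 12.2 in control IgG-IP (log2 fold change 1.00, SE 0.42, edgeR adjusted p = 0.338). Both TSSK2-IP libraries were above both control libraries, and here the control libraries lay close together. Ears2 (glutamate) and Mars2 (methionine) also had both TSSK2-IP libraries above the controls, with log2 fold changes of 0.37 and 0.30.

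Vars2, for valine, stood at 7.05 and 7.99 in TSSK2-IP and at 7.80 and 17.2 in control IgG-IP (log2 fold change -0.72, SE 0.51, edgeR adjusted p = 0.530). Wars2, for tryptophan, stood at 4.15 and 5.52 against 1.72 and 4.60 normalized CPM (log2 fold change 0.64, SE 0.73, edgeR adjusted p = 0.709). In both genes the groups overlapped and control IgG-IP replicate 2 was the higher control. Aars2, for alanine, had the smallest difference of the mitochondrial group at 29.4 and 26.8 against 36.2 and 23.7 normalized CPM (log2 fold change -0.09, SE 0.40, edgeR adjusted p = 0.939). Tars2 was the 1 mitochondrial gene with both TSSK2-IP libraries below the controls, at 15.3 and 17.9 against 29.3 and 20.9 normalized CPM.

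**Figure D3:**
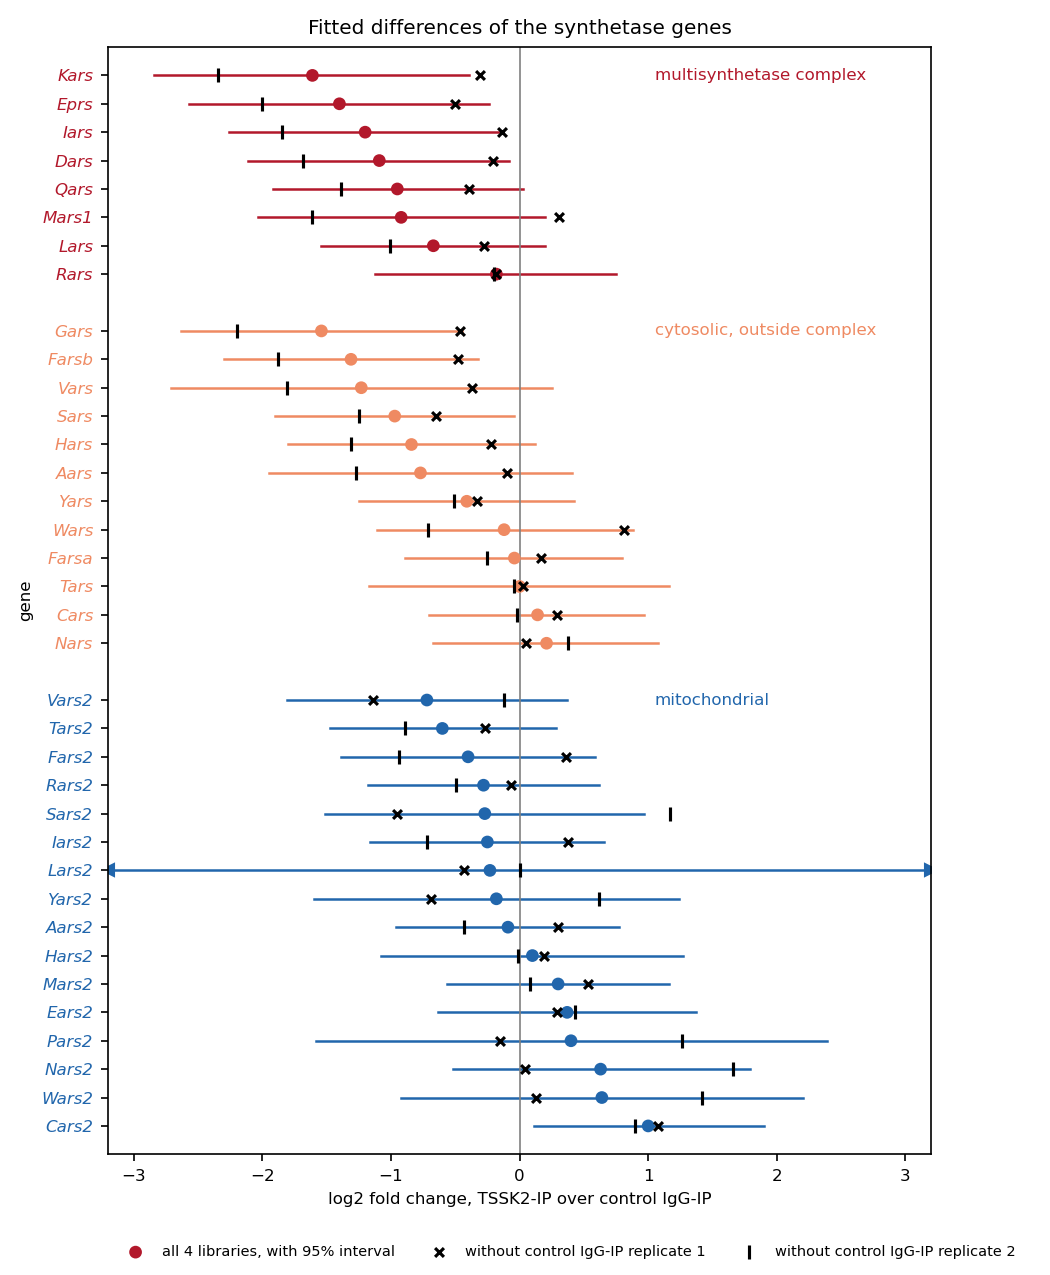
Log2 fold change of TSSK2-IP over control IgG-IP for each synthetase gene, with points from all 4 libraries and lines for the 95% interval. The interval of Lars2 runs past both ends of the axis, from -8.62 to 8.15. Black crosses and black bars are the values without control IgG-IP replicate 1 and without replicate 2. The genes of the multisynthetase complex lie to the left of 0 with all libraries, and without control IgG-IP replicate 1 all of them but Rars move toward 0 or, for Mars1, past it.

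The lower values of the cytosolic enzymes depended on 1 control library. The median log2 ratio of control IgG-IP replicate 1 over replicate 2 was 1.36 for the multisynthetase complex, 0.71 for the other cytosolic enzymes and -0.11 for the mitochondrial enzymes, beside -0.16 for all genes tested. Between the 2 TSSK2-IP libraries the corresponding medians were 0.11, 0.13 and 0.05, and 0 of the 36 genes lay 2-fold apart. With control IgG-IP replicate 1 left out, the median log2 fold changes were -0.24, -0.16 and 0.09 for the 3 groups in the same order, and 0.00 for all genes. Without control IgG-IP replicate 2 they were -1.65, -0.98 and 0.04, and 0.16 for all genes.

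Calls also changed with the control library that was left out. Without control IgG-IP replicate 2, edgeR called 13 synthetases lower (36.1%, against 17.4% of all genes) and 2 higher (5.56%, against 17.9%). The 13 were 7 genes of the complex and 6 other cytosolic enzymes, and the 2 higher genes were the mitochondrial Nars2 and Sars2. Without control IgG-IP replicate 1, 1 synthetase was called lower (Vars2, background 2.56%) and 1 higher (Cars2, background 5.38%). These fits have a lone control library that is assumed to vary as the TSSK2-IP pair does, and that pair was the closer one. Without TSSK2-IP replicate 1 the median log2 fold change of the 36 genes was -0.47, and without TSSK2-IP replicate 2 it was -0.30. Calls of those fits are not read here, since the share of all genes called in them is not given.

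Sars2, the mitochondrial seryl-tRNA synthetase, turned direction between the controls. It stood at 13.7 and 15.0 normalized CPM in TSSK2-IP and at 6.08 and 29.0 in control IgG-IP, giving a log2 fold change of -0.95 without control IgG-IP replicate 1 and 1.17 without replicate 2. Wars, the cytosolic enzyme for tryptophan, turned the other way, at 0.81 and -0.71 for the same omissions (edgeR adjusted p = 0.0239 and 0.00268), from 30.9 and 28.0 normalized CPM in TSSK2-IP and 46.0 and 17.5 in control IgG-IP. Of the 36 genes, 18 had a negative value with all libraries and under every omission of 1 library (50.0%, against 25.7% of all genes). A further 6 were positive throughout, where 4811 of 14716 genes were. The other 12 (33.3%) changed sign, where 41.6% of all genes did. In the multisynthetase complex 7 of 8 genes were negative throughout, and the exception was Mars1, at 0.31 without control IgG-IP replicate 1. Cars2 kept its direction, between 0.70 and 1.23.

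For 13 amino acids the 36 genes held 1 cytosolic and 1 mitochondrial gene that could be paired. Phenylalanine, glutamate and proline were left out of the pairs, because Farsa and Farsb form 1 enzyme and Eprs serves glutamate and proline. There Fars2 stood at -0.40 beside -0.04 for Farsa and -1.31 for Farsb. Ears2 and Pars2 stood at 0.37 and 0.40 beside -1.40 for Eprs. The mitochondrial gene had the higher log2 fold change in 11 of the 13 pairs, and the median of mitochondrial minus cytosolic was 0.68. This order rested on control IgG-IP replicate 1, without which the mitochondrial gene was higher in 6 of 13 pairs with a median of -0.01. Leaving out replicate 2 instead gave 11 pairs and 1.13. With all libraries the widest pair was Mars1 and Mars2, for methionine, at -0.92 and 0.30, a difference of 1.22. The leucine pair lay at -0.67 for Lars and -0.23 for Lars2. The 2 pairs in the opposite order were Rars and Rars2, at -0.18 and -0.28, and Tars and Tars2, at 0.00 and -0.60. All pairs share the same 4 libraries and are not independent, and the difference within a pair was not tested.

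**Figure D4:**
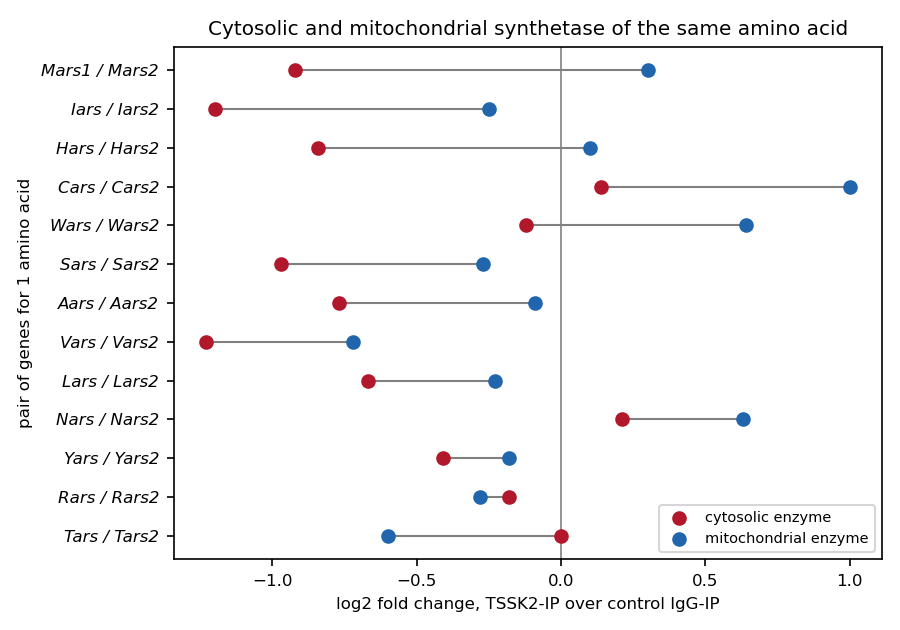
Log2 fold change of TSSK2-IP over control IgG-IP for the cytosolic (red) and the mitochondrial (blue) synthetase of the same amino acid, 1 line per pair, ordered by the difference. The blue point lies to the right of the red one in 11 of 13 pairs, and neither point of any pair was called. Without control IgG-IP replicate 1, which is not drawn, the count was 6 of 13.

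The log2 fold change was lower for synthetases of higher level. Over the 35 genes without Lars2 the correlation of the log2 fold change with the log2 mean normalized CPM per kb was r = -0.72, and over 14710 genes tested it was -0.21. Both axes come from the same 4 libraries, so a gene that is high in 1 control library is moved along both. Correlations with exon length and GC content were -0.02 and -0.08 over the same 35 genes. The cytosolic genes were also the more abundant ones, so level and location of the enzyme cannot be told apart here.

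**Figure D5:**
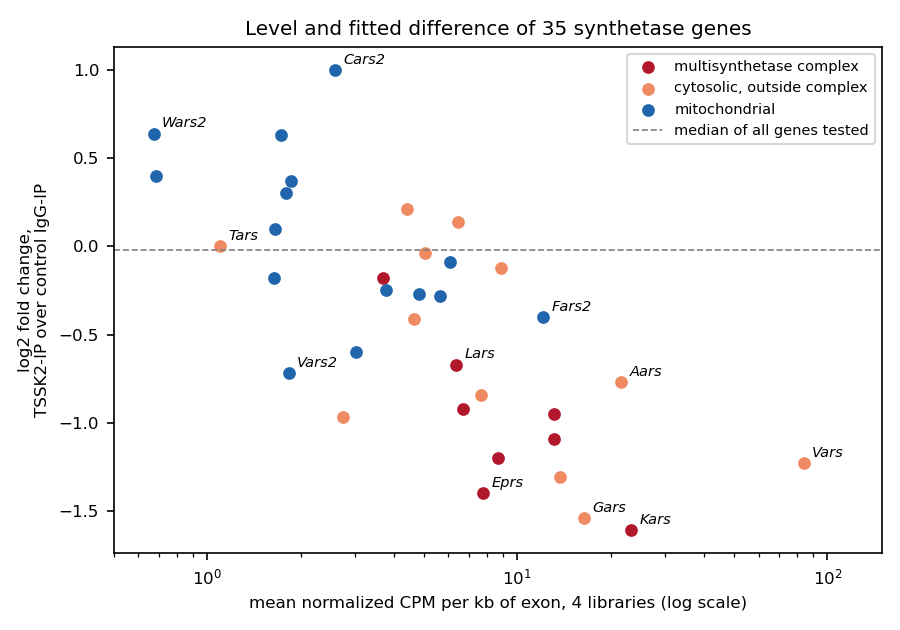
Log2 fold change against mean normalized CPM per kb of exon over 4 libraries (log scale) for 35 synthetase genes, without Lars2, coloured by group. The dashed line is the median of all genes tested, at -0.02. Mitochondrial genes fill the upper left and genes of the multisynthetase complex the lower middle, and Vars and Kars are at the right.

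Other genes of tRNA charging and of the delivery of charged tRNA were followed from a list of 22, of which 21 were tested (Prorsd1 was below the filter). None of the 21 was called by edgeR, 10 were negative and 11 positive, their median log2 fold change was 0.02, and both TSSK2-IP libraries were above the controls for 4 (19.0%, against 27.3% of all genes) and below them for 5 (23.8%, against 21.6%). At an unadjusted p under 0.05 the list held 1 gene, Tufm, the mitochondrial elongation factor Tu that brings charged tRNA to the mitochondrial ribosome. Tufm stood at 10.6 and 13.1 normalized CPM in TSSK2-IP and at 52.9 and 25.5 in control IgG-IP (log2 fold change -1.73, SE 0.45, edgeR adjusted p = 0.129). With no filter on low counts it passed the threshold (log2 fold change -1.79, edgeR adjusted p = 0.0185), and without control IgG-IP replicate 1 or replicate 2 as well, at -1.04 and -2.22.

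Eef1a1, the cytosolic counterpart of Tufm, stood at 582 and 543 normalized CPM in TSSK2-IP and at 3430 and 851 in control IgG-IP (log2 fold change -1.93, SE 0.96, edgeR adjusted p = 0.397). The value for Eef1a1 shrank to -0.54 when control IgG-IP replicate 1 was omitted and stood at -2.68 when replicate 2 was. Tsfm, the exchange factor that reloads Tufm, differed in the other direction at 7.88 and 8.94 against 2.34 and 5.05 (log2 fold change 1.21, SE 0.60, edgeR adjusted p = 0.397), with 0.79 and 1.77 for the same omissions. Both genes were chosen after their values were seen. Aimp1 and Aimp2, scaffold proteins of the multisynthetase complex, had log2 fold changes of -0.64 and -0.67, and Eef1e1, another of its scaffold proteins, of 0.64. The groups of Aimp1 and Aimp2 overlapped, and both genes changed sign without control IgG-IP replicate 1, to 0.17 and 0.06, and stood at -1.19 and -1.17 without replicate 2. Eef1e1 stood at 0.08 with control IgG-IP replicate 1 left out.

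The 36 genes lie on 15 chromosomes with 5 on chromosome 1, and their annotated exons cover 2447 to 18102 bases at 38.8 to 60.3% GC. Exon sequence of 9 of them matched another gene of the table over at least 150 bases at 97% identity or more, so that reads there could belong to either. Aars shares 1326 exon bases on the same strand with Exosc6. Hars and Hars2 lie head to head on chromosome 18 and share 195 exon bases on opposite strands. On opposite strands too, Iars2 matched Rab3gap2 over 2034 bases, Fars2 matched Nrn1 over 501, Farsb matched Sgpp2 over 248 and Cars2 matched Naxd over 215. Away from their own place in the genome, Eprs matched Churc1, Gtpbp4, Pbld1, Washc4 and Zan over 171 to 196 bases, and Yars matched Olfr646 over 214. The counts of Eprs and Yars are therefore uncertain too. In all, 13 synthetase genes share exon bases with a gene on the opposite strand. The libraries were directional by the methods but the strand setting of the counting is not given in the sources used here, so the counts of these genes, Farsb and Cars2 included, are uncertain.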

How the data were processed

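RNA from 2 TSSK2-IP and 2 control IgG-IP libraries of mouse testis was analysed as raw read counts per gene deposited by the authors. Per the labels, the authors trimmed reads with Trimmomatic 0.39, aligned them to GRCm38 with STAR 2.7.10a and counted them with featureCounts 2.0.3. The published methods give another STAR version. The strand setting and the handling of multi-mapping reads are not given in the sources used here.

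Counts of all 21936 genes were fitted with edgeR 4.0.16 (R 4.3.3) by the quasi-likelihood test, with TMM scaling, filterByExpr and Benjamini-Hochberg adjustment over the 14722 genes that passed. A call needed a change of 2-fold or more either way and an adjusted p no higher than 0.05. The script was tested on simulated counts. Limits on right and wrong calls were set only for a spread smaller than that of these data, so the test does not show what the fit would call here. Totals ranged from 3938922 to 9858941 counts. Of the identifiers, 21894 were named through GENCODE vM21, which also gave exons, and 42 were unmatched. Exon sequence was compared with blastn 2.17.0. Alternatives were DESeq2 1.42.0, its size factors, upper-quartile scaling, other filters, Lars2 left out, a replicate block and each library left out. Values in full were given for Lars2, Lars, called genes and, in each location group, the 3 genes with the largest and the 1 with the smallest log2 fold change in size, and for other tRNA charging genes at an unadjusted p under 0.05, with others given by range or added after their values were seen. The members and gene lists were chosen with earlier results of these data known. Anti-DDX4 libraries were not analysed here.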

Additional observations from a re-analysis of the deposited data

How the results depend on the processing

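No synthetase was called by edgeR or DESeq2, with DESeq2's size factors, upper-quartile scaling, no filter on low counts, at least 10 counts in every library, or with Lars2 left out of the table. Of these settings, the share of all genes called is given only for the main edgeR fit. The other zeros have no background beside them. Leaving out 1 library gave between 0 and 15 called synthetases, with 2 where control IgG-IP replicate 1 was omitted and 15 where replicate 2 was, and between 0 and 8 called genes among the other tRNA charging genes, with 1 (lower) and 8 (6 lower, 2 higher) for the same omissions, in fits that called 2.56% and 17.4% of all genes lower and 5.38% and 17.9% higher. The 0s in both ranges come from the fits without 1 TSSK2-IP library. The share of all genes called in those fits is not given, so these 0s are not read. With no filter on low counts Tufm, 1 of the other tRNA charging genes, was called. The share of all genes called without that filter is not given either. Aars2 turned from -0.09 to 0.30 without control IgG-IP replicate 1, with a range of -0.43 to 0.30 over the libraries left out. The median log2 fold change of the 36 genes lay between -0.50 and -0.15 as single libraries were left out, and between -0.40 and -0.26 under the scaling, filter and DESeq2 settings and without Lars2. Lars2 lay between -0.43 and 0.00. DESeq2's size factors moved the median of all genes from -0.02 to -0.14. Of 248 recomputed values, 223 kept their direction and their side of the threshold or stayed within the spread, and the cause of the other changes was not tested. A value could do so and still move far. The 223 include Kars, which went from -1.61 to -0.31 without control IgG-IP replicate 1.

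Replicate numbers are shared between the groups, but with 2 pairs and a correlation of 0.126 across genes between their replicate differences they were not taken as a pairing. With the replicate number as a block, 0 synthetases and 0 other tRNA charging genes were called, the median log2 fold change of the 36 genes was -0.24 and that of Lars2 -0.21. With 2 libraries a group, low counts limit Wars2 and Pars2 most.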
